A study of Mus musculus with 4 samples.

Results

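The nuclear genes that encode subunits of respiratory complexes I, III, IV and V were compared between livers of PA and WT mice. They were taken by name and biotype alone: protein-coding genes whose mouse symbol starts with Ndufa, Ndufb, Ndufc, Ndufs or Ndufv and a digit (complex I), Uqcr (III), Cox4 to Cox8 (IV) or Atp5 (V), without assembly factors of the Ndufaf family and without pseudogenes. The rule gave 81 of the 55487 gene identifiers in the files, 37 in complex I, 8 in complex III, 18 in complex IV and 18 in complex V. They carry 80 symbols, because Atp5o has 2 identifiers, and 12 pseudogenes or non-coding genes with such names were left out. Of the 81, 74 passed the filter on low counts (37, 8, 12 and 17 by complex), among 14411 tested genes. Of the 7 others, 3 had no count in any library.

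Polyadenylated RNA was sequenced from frozen liver of 4 female mice aged 11 weeks, all on the FVB background and on a standard chow. The 2 PA mice carry, per the labels, a hypomorphic Pcca genotype written Pcca-/- (A138T), and the 2 WT mice are wild type. What drives expression of the A138T allele is not given in the sources used here. Pcca encodes the alpha subunit of propionyl-CoA carboxylase, a mitochondrial enzyme that clears propionyl-CoA, and its mRNA stood at 34.2 and 47.4 CPM (gene counts scaled to the size of the library) in PA livers, against 60.3 and 58.9 CPM in WT livers. Both PA values lay under both WT values, but the difference did not pass the test (log2 fold change -0.55, SE 0.22, adjusted p = 0.398 by edgeR's quasi-likelihood test with Benjamini-Hochberg adjustment). These counts do not separate alleles.

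Complex I passes electrons from NADH to ubiquinone, complex III passes them on to cytochrome c and complex IV to oxygen, and these steps pump protons across the inner mitochondrial membrane; complex V, the ATP synthase, lets the protons back to make ATP. Most subunits are encoded in the nucleus, made in the cytosol and imported, while some core subunits of these complexes are encoded in mitochondrial DNA. In liver, which runs gluconeogenesis, ureagenesis and fatty acid oxidation in or through mitochondria, their mRNAs are abundant.

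The libraries held 25990553 and 30110400 gene counts in PA livers, against 29627033 and 25575016 in WT livers, so that 3 counts corresponded to 0.0978 to 0.118 CPM. Mitochondrially encoded genes took 13.6 and 8.98% of the counts in PA livers, against 6.90 and 7.38% in WT livers. PA replicate 1 also had the largest share of multimapped reads, 13.5%, against 9.11 to 9.42% in the other 3 libraries. The hepatocyte markers Alb, Apoa1, Ttr, Cps1 and Pck1 summed to 62730 and 93578 TPM (the RSEM level per transcript length, scaled to a fixed total per library) in PA livers, against 87476 and 93088 TPM in WT livers. Of 5 genes in each list, skeletal muscle markers summed to 1.18 and 1.16 TPM in PA livers and 0.92 and 1.64 TPM in WT livers, with Myh4 and Ckm listed at 0 in all 4 libraries. White fat markers summed to 0.80 and 0.16 TPM in PA livers and 0.44 and 0.28 TPM in WT livers, with Plin1, Lep and Retn at 0. Brown fat markers summed to 0.08 and 0.06 TPM in PA livers and 2.69 and 0.77 TPM in WT livers, with Ucp1, Cidea and Dio2 at 0. Some markers of other cells were lower in PA livers in TPM, where the median log2 ratio of PA to WT over all tested genes was -0.23. In summed CPM the ratios of PA to WT were 0.54 for Kupffer, 0.22 for erythroid and 0.58 for lymphoid markers. They were 0.81 for endothelial, 0.75 for cholangiocyte, 1.04 for stellate and 0.99 for hepatocyte markers. Kupffer cell markers summed to 103 and 189 TPM in PA livers and 327 and 271 TPM in WT livers, with 5 of 5 lower in both PA libraries, 0 called by edgeR (3 at an unadjusted p under 0.05) and 2 by DESeq2. Erythroid markers summed to 33.3 and 66.0 TPM in PA livers and 442 and 211 TPM in WT livers, with Hbb-bs called, and lymphoid markers to 1.53 and 2.94 TPM in PA livers and 4.89 and 4.14 TPM in WT livers. Endothelial markers summed to 72.7 and 84.4 TPM in PA livers and 138.4 and 117.9 TPM in WT livers. By CPM, both PA libraries lay below both WT libraries in 1 of the 5, against 21.9% of all tested genes. Cholangiocyte markers summed to 21.1 and 28.9 TPM in PA livers and 32.6 and 43.7 TPM in WT livers, while 4 of the 5 had a positive log2 fold change (median 0.65) and both PA libraries were above both WT libraries in 3. Stellate markers overlapped, at 189 and 206 TPM in PA livers and 228 and 200 TPM in WT livers. Elovl3, listed as a brown fat gene and also made by liver, was called at 0.157 and 0.067 CPM in PA livers, against 3.06 and 1.26 CPM in WT livers (adjusted p = 0.0487, edgeR). The part of these markers in the values of the subunit genes was not tested. In whole tissue, fewer cells of a type and less RNA per cell cannot be told apart.

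No subunit gene was called at an adjusted p under 0.05. In the fit over all genes, 117 of 14411 (0.812%) were called, 38 higher in PA (0.264%) and 79 lower (0.548%); the subunit genes contributed 0 of 74 in either direction with edgeR's quasi-likelihood test. The smallest adjusted p among them was 0.22, and it belonged to Atp5d. DESeq2, which called 3.07% of all genes (1.29% higher and 1.78% lower in PA), also called 0 of the 74, and so did limma-voom, which called 0.604% of all genes. At an unadjusted p under 0.05 edgeR gave 10 of the 74 higher in PA, against 5.88% of all tested genes, and 0 lower, against 5.93%. Standard errors were 0.19 to 0.50 on the log2 scale per gene, with 2 livers a group. The size of difference that such a comparison can detect gene by gene was not estimated.

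The subunit genes nevertheless lay mostly on the positive side of the comparison. The log2 fold change of PA over WT was above 0 in 64 of the 74, against 50.6% of all tested genes, and its median was 0.22, against 0.00 over all tested genes. Both PA libraries exceeded both WT libraries in 38 of the 74, against 21.3% of all tested genes, and both lay under them in 0, against 21.9%. Single values spanned -0.23 to 0.72. Much of this came from 1 library. PA replicate 1 was above both WT libraries in 69 of the 74 (38.5% of all tested genes), with a median of 0.38 above the WT mean on the log2 scale. PA replicate 2 was above both in 40 (38% of all tested genes) and below both in 30, with a median of 0.06. Without PA replicate 1 the median over the subunit genes was 0.07 and 43 of 74 were positive; without PA replicate 2 these were 0.39 and 71 of 74.

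**Figure D1:**
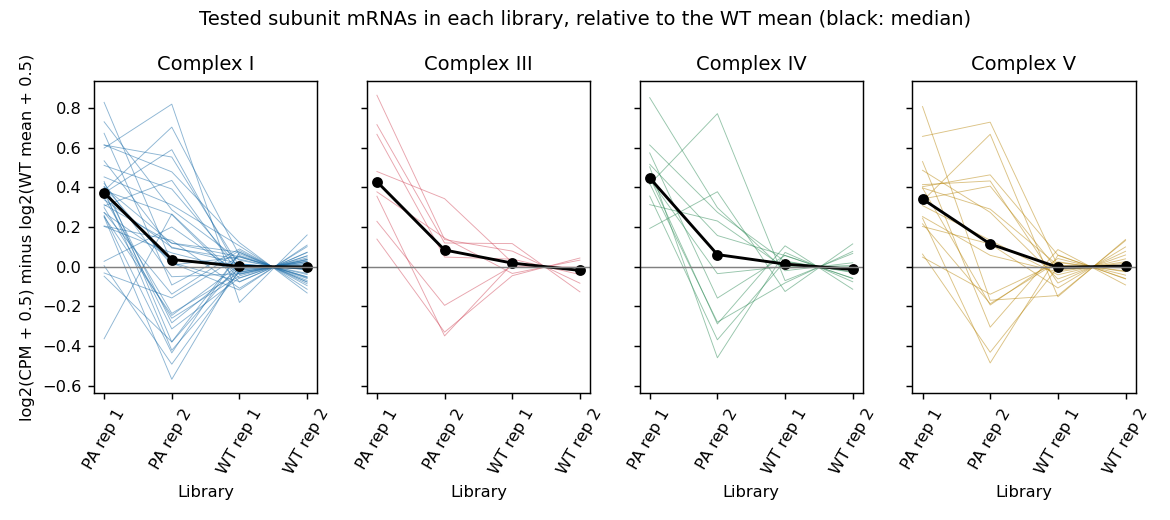
Each thin line joins the 4 library values of 1 tested subunit gene, as log2(CPM + 0.5) minus the log2 of the WT mean plus 0.5, and black points are medians over the genes of a complex. The medians of PA replicate 1 lie at 0.34 to 0.45 in the 4 complexes and those of PA replicate 2 at 0.04 to 0.11, with single genes of PA replicate 2 on both sides of 0.

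The 4 complexes had median log2 fold changes of 0.21 in complex I, 0.33 in complex III, 0.26 in complex IV and 0.22 in complex V. Positive values were held by 31 of 37 genes in complex I, 7 of 8 in III, 12 of 12 in IV and 14 of 17 in V, and both PA libraries exceeded both WT libraries in 17, 5, 6 and 10 of them. Within groups, the medians over the WT mean differed between libraries. The complexes largely share this spread because they are measured in the same libraries. It lay mostly between the PA libraries. Over the WT mean, the medians of WT replicate 1 were 0.0016, 0.018, 0.013 and -0.0030. Those of WT replicate 2 were -0.0016, -0.019, -0.014 and 0.0030. The differences between complexes were not tested. In each complex the median of PA replicate 1 over the WT mean (0.37, 0.43, 0.45 and 0.34) stood above that of PA replicate 2 (0.04, 0.08, 0.06 and 0.11).

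**Figure D2:**
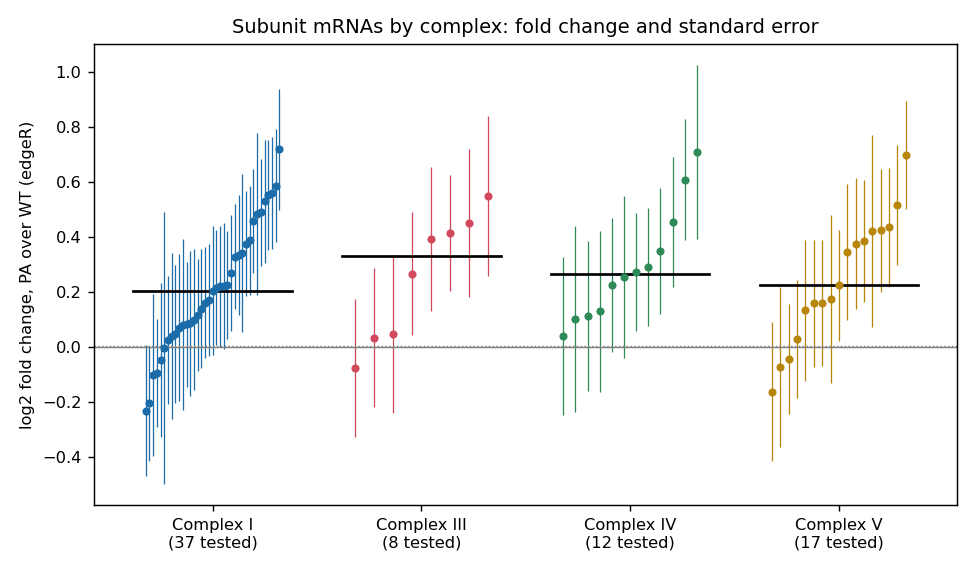
The log2 fold change of PA over WT with its standard error (edgeR, 2 livers a group) is drawn for each tested gene, ordered by value within its complex, and black bars mark the medians of 0.21, 0.33, 0.26 and 0.22. The dotted line, almost on 0, is the median over all tested genes.

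In complex I, the core subunits bind the flavin and the iron-sulfur clusters, and the accessory subunits surround them. Ndufb10, an accessory subunit of the membrane arm (chr17:24722060-24724478, minus strand, GRCm38), had 92.8 and 108 CPM in PA livers, against 53.9 and 68.4 CPM in WT livers. Both PA values were above both WT values, and the log2 fold change was 0.72 (SE 0.22, adjusted p = 0.259, edgeR). Ndufv1, the core subunit that carries the flavin where NADH is oxidised (chr19:4007384-4012806, minus strand), had 180 and 172 CPM in PA livers, against 117 and 117 CPM in WT livers. Its groups did not overlap either, at a log2 fold change of 0.59 (SE 0.21, adjusted p = 0.322, edgeR). Ndufs7, a core subunit with an iron-sulfur cluster near the ubiquinone site, had 62.6 and 56.9 CPM in PA livers, against 44.3 and 37.1 CPM in WT livers (log2 fold change 0.55, SE 0.20, adjusted p = 0.334, edgeR). The accessory genes Ndufb7 (0.56), Ndufb6 (0.53), Ndufv3 (0.49) and Ndufa8 (0.46), named here after their values were seen, completed the 7 complex I genes with an unadjusted p under 0.05; Ndufb6 was 0.29 without PA replicate 1.

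Core and accessory genes of complex I had medians close to each other, with no test of the difference. The 7 core genes had a median log2 fold change of 0.17, with both PA libraries above both WT libraries in 5, and the 30 accessory genes had a median of 0.21, with 12 such genes. Ndufa4 was the most abundant member of all 81 at a mean of 1143 TPM; its protein was first assigned to complex I and is now placed with complex IV. It had 1226 and 893 TPM in PA livers, against 1266 and 1187 TPM in WT livers, and in CPM its PA values of 633 and 360 lay on either side of the WT values of 474 and 465 (log2 fold change 0.08, SE 0.31). The PA livers differed more from each other than their mean did from the WT mean. Ndufa6, an accessory subunit of the peripheral arm and next in abundance within complex I, showed the same spread, with 282 and 161 CPM in PA livers, against 212 and 219 CPM in WT livers. The lowest log2 fold changes were those of Ndufb2 (-0.23, SE 0.24) and Ndufb3 (-0.21, SE 0.21), both accessory subunits of the membrane arm, and both overlapped between groups. Counts of Ndufb2 were 24.7% of its RSEM expected counts, the lowest share among tested members, so its value is uncertain.

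Complex III holds 2 core proteins, the Rieske iron-sulfur protein and small accessory subunits among the members; its cytochrome c1 gene, Cyc1, does not follow the naming rule. Uqcrc1, a core protein (chr9:108936633-108949623, plus strand), had 207 and 188 CPM in PA livers, against 150 and 146 CPM in WT livers. The groups did not overlap (log2 fold change 0.41, SE 0.21, adjusted p = 0.515, edgeR). Its partner Uqcrc2 had 529 and 394 CPM in PA livers, against 452 and 450 CPM in WT livers, and overlapped (log2 fold change 0.03, SE 0.25). Uqcrq, a small subunit, had 318 and 192 CPM in PA livers, against 184 and 165 CPM in WT livers; PA replicate 1 stood well above the other 3 libraries (log2 fold change 0.55, SE 0.29, adjusted p = 0.533, edgeR). Without PA replicate 1 the Uqcrq value was 0.14. Uqcr11, likewise a small subunit, had 220 and 145 CPM in PA livers, against 145 and 122 CPM in WT livers, a log2 fold change of 0.45 that was 0.13 without PA replicate 1. Uqcrh and Uqcrb, the most abundant members of the complex at means of 749 and 714 TPM, had log2 fold changes of 0.05 (SE 0.29) and -0.08 (SE 0.25), with PA replicate 2 below both WT libraries in each.

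Complex IV was the complex in which every tested member had a positive value, and all 12 of those genes were above both WT libraries in PA replicate 1 and 6 in PA replicate 2. Cox5b, a subunit on the matrix side (chr1:36691449-36693681, plus strand), had 93.5 and 120 CPM in PA livers, against 66.6 and 73.3 CPM in WT livers. PA replicate 2 was the higher of the PA pair, and the log2 fold change was 0.61 (SE 0.22, adjusted p = 0.334, edgeR). Cox4i1, the common isoform of the subunit with a role in assembly and regulation, had 353 and 278 CPM in PA livers, against 234 and 226 CPM in WT livers (log2 fold change 0.46, SE 0.24, adjusted p = 0.522, edgeR); it was 0.28 without PA replicate 1. Cox6c and Cox7c, small membrane subunits with the highest TPM of the complex (means of 815 and 608 TPM), had log2 fold changes of 0.10 (SE 0.34) and 0.13 (SE 0.29), with PA replicate 2 below both WT libraries in both genes.

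Several complex IV subunits are encoded by a widely used gene and by 1 or more genes used in muscle, heart, lung or testis, and liver held the first kind. Cox4i2 (2 and 1 counts in PA livers, 2 and 3 in WT livers), Cox6a2 (0 and 1 in PA, 2 and 0 in WT), Cox6b2 (0 and 5 in PA, 3 and 3 in WT) and Cox8b (0 and 0 in PA, 3 and 0 in WT) were near the floor of detection, and Cox7b2 and Cox8c had no count. These genes and the second Atp5o identifier, a longer gene model overlapping the first and with no count, are the 7 that were not tested. Cox7a1, the isoform of heart and skeletal muscle (chr7:30184144-30186078, plus strand), was the exception, at 13.6 and 12.4 TPM in PA livers, against 9.79 and 8.62 TPM in WT livers. Both PA values were higher, at a log2 fold change of 0.71 in the counts (SE 0.32, adjusted p = 0.45, edgeR), which was 0.37 without PA replicate 1. Cox7a1 was 2.74 and 3.34% of the summed TPM of Cox7a1 and Cox7a2 in PA livers, against 1.87 and 1.83% in WT livers. Cox7a2, the liver isoform, had 482 and 360 TPM in PA livers, against 515 and 463 TPM in WT livers, and Cox7a2l, which takes part in supercomplexes of complexes III and IV, had 171 and 134 TPM in PA livers, against 158 and 172 TPM in WT livers. The 5 skeletal muscle markers summed to 1.18 and 1.16 TPM in PA livers and 0.92 and 1.64 TPM in WT livers, with Myh4 and Ckm at 0; their part in the Cox7a1 values was not tested. Ndufa4l2, a paralog of Ndufa4 induced by hypoxia, averaged 1.38 TPM.

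**Figure D3:**
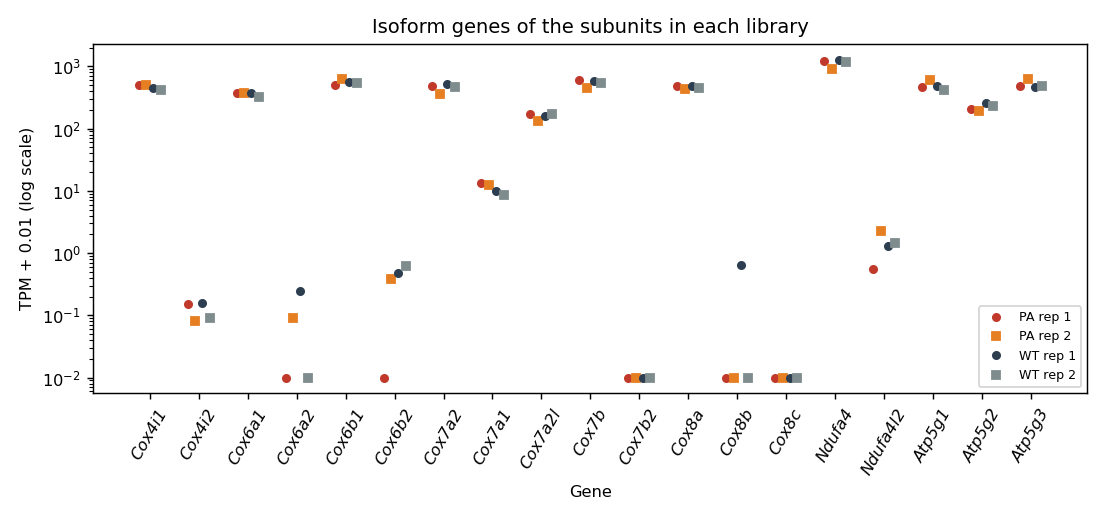
TPM + 0.01 on a log axis of the genes that belong to isoform sets, 4 points a gene for PA replicates 1 and 2 and WT replicates 1 and 2. The widely used isoforms lie at 100 TPM or above, Cox7a1 near 10 TPM, Ndufa4l2 near 1 TPM, and Cox4i2, Cox6a2, Cox6b2, Cox7b2, Cox8b and Cox8c below 1 TPM, where points at 0.01 are listed at 0.

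Complex V holds the catalytic F1 head, stalks that hold and turn it, a membrane ring of c subunits and small membrane subunits. Atp5d, the delta subunit of the central stalk of F1 (chr10:80138632-80145818, plus strand), had 118 and 124 CPM in PA livers, against 74.6 and 74.1 CPM in WT livers. Replicates lay close together in both groups, and this was the smallest p of all subunit genes (log2 fold change 0.70, SE 0.20, unadjusted p = 0.0092, adjusted p = 0.22, edgeR). Its adjusted p ranged from 0.101 to 0.929 over the 17 alternative analyses, with log2 fold changes of 0.60 to 0.76. Atp5o, a subunit of the peripheral stalk, had 45.3 and 57.4 CPM in PA livers, against 32.3 and 39.5 CPM in WT livers (log2 fold change 0.52, SE 0.22, adjusted p = 0.417, edgeR). Its counts were 37.1% of the expected counts from RSEM, which shares out reads that fit several genes, so its level in CPM is uncertain, and its log2 fold change was 0.33 without PA replicate 2. Atp5b, the catalytic beta subunit and the second most abundant member at a mean of 1025 TPM, had 1487 and 1381 CPM in PA livers, against 1134 and 1123 CPM in WT livers, with no overlap (log2 fold change 0.35, SE 0.25, adjusted p = 0.656, edgeR).

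The parts of complex V differed in how PA replicate 2 lay. In the 5 F1 genes (Atp5a1, Atp5b, Atp5c1, Atp5d and Atp5e) both PA libraries were above both WT libraries in 5 of 5, with medians of 0.34 for PA replicate 1 and 0.29 for PA replicate 2 over the WT mean and a median log2 fold change of 0.35. The 3 genes of the c ring encode the same mature protein. Atp5g1 and Atp5g3 had log2 fold changes of 0.44 (SE 0.22) and 0.42 (SE 0.22) without overlap, and Atp5g2 had 0.03 (SE 0.22) with overlap. Atp5g2 was 17.6 and 13.5% of the summed TPM of the 3 in PA livers, against 21.2 and 20.3% in WT livers, at counts that were 58.1% of the RSEM expected counts. In the 4 small membrane subunit genes (Atp5j2, Atp5k, Atp5l and Atp5mpl) PA replicate 1 was above both WT libraries in 4 of 4 and PA replicate 2 below both in 4 of 4, at a median log2 fold change of 0.04. Counts of Atp5l were 58.6% of its RSEM expected counts. Atp5j, a peripheral stalk subunit, had the lowest value of the complex, -0.16 (SE 0.25). This grouping by position in the enzyme was made after values had been seen, and no test of the difference between the groups was run.

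Levels per length gave another picture of the sums. All subunit genes together had 23309 and 22091 TPM in PA livers, against 24054 and 22464 TPM in WT livers, a ratio of 0.98. By complex the ratio of mean PA to mean WT TPM was 0.95 in complex I, 0.99 in III, 0.99 in IV and 0.99 in V. The ratio of summed CPM was 1.14, 1.15, 1.18 and 1.20 in the same order. Complexes followed gene symbols, so the complex I sum included Ndufa4, at means of 1060 TPM in PA livers and 1227 TPM in WT livers. Differences between the complexes were not tested. TPM values of 1 library share a fixed total, of which mitochondrially encoded genes took 20.7 and 17.1% in PA livers, against 10.6 and 11.7% in WT livers, and over all tested genes the median log2 ratio of PA to WT TPM was -0.23. Relative to that shift, the median of the subunit genes, 0.00 on the TPM scale, was again 0.23 higher. With mitochondrially encoded genes left out of the total, the TPM ratios were 1.04, 1.08, 1.09 and 1.08. The direction of the summed levels depended on the scaling, and the median of the subunit genes lay above that of all genes on both scales.

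**Figure D4:**
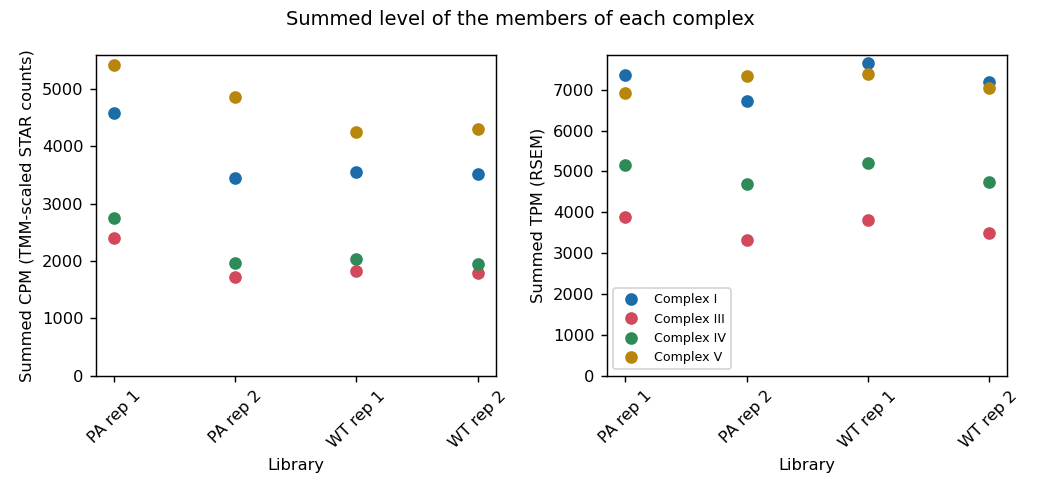
Summed CPM on TMM-scaled library sizes (left) and summed RSEM TPM (right) of the members of each complex in PA replicates 1 and 2 and WT replicates 1 and 2. On the CPM scale PA replicate 1 is the highest library in all 4 complexes, and on the TPM scale the 4 libraries interleave.

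Transcript length and base composition were set beside these values. Among the 74 subunit genes, Pearson's r between log2 effective length and log2 fold change was 0.03, against -0.05 over all tested genes. With the values of PA replicates 1 and 2 over the WT mean it was -0.14 and 0.18 among the subunit genes. The subunit mRNAs are short, with a median effective length of 492 bases, against 2058 bases over all tested genes. The 1083 tested genes under 500 bases had a median log2 fold change of 0.22, with 734 positive, and their medians in PA replicates 1 and 2 were 0.32 and -0.07 over the WT mean. Genes of 500 to 1000 bases had a median of 0.03. Both classes include subunit and ribosomal protein genes. The 2648 tested genes under 1000 bases outside the subunit, ribosomal protein and mitochondrially encoded genes had a median of 0.08, with 1511 positive. Their medians in PA replicates 1 and 2 were 0.17 and -0.10 over the WT mean. With offsets for length in the fit, the median of the subunit genes was 0.19, with 57 of 74 positive (54.0% of all tested genes), and with offsets for length and GC content together it was 0.17, with 55 of 74. Over all tested genes the medians were 0.03 with length offsets and 0.04 with both, and with both 7758 of 14411 were positive, so the subunit genes lay closer to the median of all genes than without offsets. The 83 tested cytosolic ribosomal protein genes, which are as short (median 499 bases), had a median of 0.25, with 0.43 in PA replicate 1 and 0.00 in PA replicate 2. Of these 83, 70 were positive, a share close to the 64 of 74 subunit genes. Both PA libraries exceeded both WT libraries in 33 of the 83, against 38 of the 74 subunit genes. For the 77 mitochondrial ribosomal protein genes (median length 816 bases) the median was 0.04, with 44 positive and both PA libraries above both WT libraries in 23. By edgeR 0 of either list were called; 10 cytosolic genes were higher and 1 lower at an unadjusted p under 0.05 and 4 mitochondrial ones higher, and DESeq2 called 1 cytosolic and 0 mitochondrial.

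Among the subunit genes the value in PA replicate 2 followed GC content. Across the 74 genes, which share the same 4 libraries, Pearson's r between GC content and the log2 of PA replicate 2 over the WT mean was 0.53 (Spearman's rho 0.52), against 0.14 (rho 0.22) for PA replicate 1; over all 14396 tested genes with a GC value these Pearson values were 0.13 and 0.12. In the tertile of the subunit genes with the lowest GC content (42.0 to 49.9%, 25 genes) the median was 0.35 in PA replicate 1 and -0.20 in PA replicate 2. In the tertile with the highest (54.5 to 60.7%, 24 genes) it was 0.43 in PA replicate 1 and 0.27 in PA replicate 2. The median log2 fold change was 0.13 in the lowest tertile, 0.21 in the middle tertile and 0.39 in the highest tertile, against -0.04, 0.03 and 0.07 over all tested genes in the same ranges of GC content. Of the 10 genes with an unadjusted p under 0.05, 7 were in the highest tertile. Whether GC content or length has a part in the differences was not tested beyond these offsets.

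**Figure D5:**
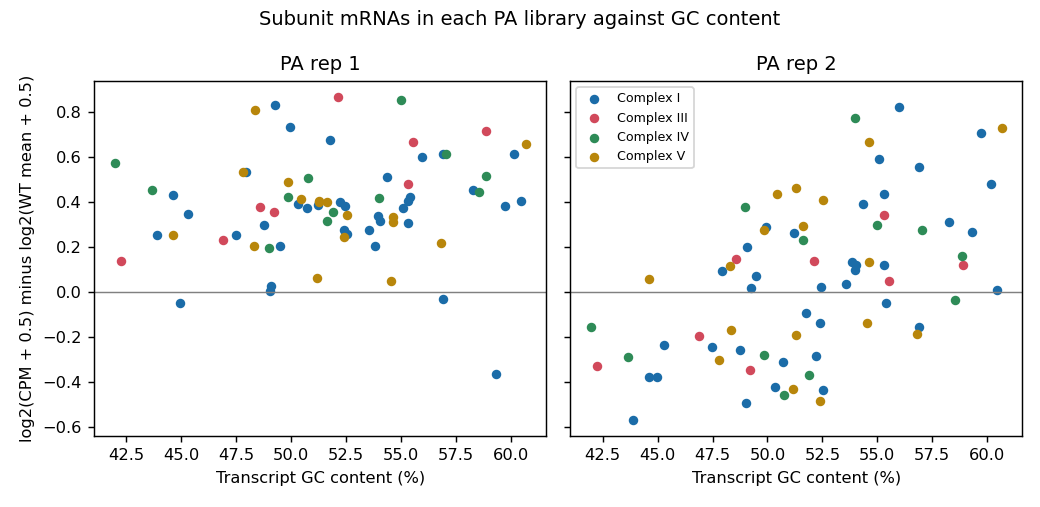
Each point is 1 tested subunit gene, with the GC content of its transcripts in percent on the x axis and log2(CPM + 0.5) minus the log2 of the WT mean plus 0.5 on the y axis, for PA replicate 1 (left) and PA replicate 2 (right). Points of PA replicate 1 lie mostly above 0 at every GC content, and those of PA replicate 2 are mostly below 0 in the low tertile and mostly above it in the high tertile.

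Other genes of the respiratory chain were counted in the same fit. A list of 7 genes outside the naming rule was used, which need not be complete. It held Cyc1 (cytochrome c1), Ndufab1 (the acyl carrier subunit), Cycs (cytochrome c) and the complex II genes Sdha, Sdhb, Sdhc and Sdhd. Of these, 0 were called by edgeR or DESeq2 and 0 had an unadjusted p under 0.05 (edgeR). All 7 were positive, at a median of 0.28, with both PA libraries above both WT libraries in 6. Sdhc, a membrane anchor of succinate dehydrogenase, had 163 and 162 CPM in PA livers, against 126 and 129 CPM in WT livers (log2 fold change 0.35, SE 0.20, adjusted p = 0.575, edgeR). Among these longer mRNAs (median 1073 bases) the medians of the PA replicates were 0.35 and 0.27. Of the 13 mitochondrially encoded subunits, 13 were positive, at a median of 1.11. Their medians over the WT mean were 1.43 in PA replicate 1 and 0.67 in PA replicate 2. PA replicate 1 was above PA replicate 2 in 13 of 13, and PA replicate 2 was below both WT libraries in 3. DESeq2 called 7 of the 13, against 3.07% of all tested genes, and edgeR called 1, against 0.812%. That gene, mt-Nd6, the complex I subunit on the light strand, had 43.7 and 33.4 CPM in PA livers, against 10.0 and 11.9 CPM in WT livers (log2 fold change 1.82, SE 0.23, adjusted p = 0.0222, edgeR). Its counts were 1.98% of the RSEM expected counts, it lies opposite other mitochondrial transcripts, and it was not called from unstranded counts (1.46, adjusted p = 0.105) or from expected counts (1.45, adjusted p = 0.127); over the 16 alternatives its adjusted p ranged from 3.75e-10 to 0.127. Summed over the 13 genes, the TPM ratio was 1.68, with 203572 and 167415 TPM in PA livers, against 104704 and 115608 TPM in WT livers, while the nuclear subunits were at 0.98 on the same scale.

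Assembly factors of the complexes had 0 of 42 tested called by edgeR or DESeq2. Of the 42, 31 were positive, against 50.6% of all tested genes, at a median of 0.15. At an unadjusted p under 0.05 (edgeR) 4 were higher, against 5.88% of all tested genes. Both PA libraries exceeded both WT libraries in 17, against 21.3%, and lay under them in 3, against 21.9%. The smallest p belonged to Coa6, a copper-site assembly factor of complex IV, with 35.2 and 27.4 CPM in PA livers, against 15.6 and 18.4 CPM in WT livers (log2 fold change 0.88, SE 0.22, adjusted p = 0.164, edgeR). Next was Lyrm7, which helps insert the Rieske protein into complex III, at 5.69 and 5.65 CPM in PA livers, against 3.10 and 3.30 CPM in WT livers (0.83, SE 0.24, adjusted p = 0.232, edgeR). Both genes had no overlap between groups. Of 12 regulators of mitochondrial gene expression 0 were called by edgeR or DESeq2, 2 were higher at an unadjusted p under 0.05, 6 were positive and the median was 0.05. Ppargc1a, the coactivator PGC-1 alpha, had 22.1 and 14.6 CPM in PA livers, against 6.65 and 11.1 CPM in WT livers (1.05, SE 0.32, adjusted p = 0.251, edgeR). Esrra, a nuclear receptor that works with it, had 29.7 and 26.2 CPM in PA livers, against 18 and 21.2 CPM in WT livers (0.51, SE 0.20, adjusted p = 0.379, edgeR). Immediate early genes, which respond to handling of tissue, had 15 of 16 positive at a median of 0.72, with 0 called by edgeR (6 higher at an unadjusted p under 0.05) and 1 by DESeq2, and higher values in PA replicate 1 (median 0.82) than in PA replicate 2 (0.30); their part was not tested.

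Promoters of subunit genes are known to hold sites for NRF1 and for ETS factors such as GABPA, known regulators of respiratory genes. RefSeq start sites (GRCm38.p6) were matched for 65 of the 80 symbols, and windows of 250 bases before to 50 after the start were searched on both strands. The full NRF1 motif, a palindrome in which GCGCATG and its reverse complement CATGCGC overlap in CATG, was in 5 of 65 genes (7.69%), against 1.07% of 27025 genes with a window, and the shorter GCGCATG, which the full motif contains, in 12 (18.5%), against 4.41%. The ETS motif, CCGGAAG, was in 14 (21.5%), against 9.93%. Stretches upstream of the RefSeq start are shown for 4 of the 5 genes with the full motif. These genes were chosen for holding it after the search and not for how they moved. Capitals mark the motif. In the GENCODE M21 annotation the Atp5g2 stretch lies inside the gene, and the Atp5k stretch overlaps the start of its gene. In the fifth gene, Uqcrc1, the match runs past the start.
Ndufa11 (chr17:56717667-56717746, plus strand): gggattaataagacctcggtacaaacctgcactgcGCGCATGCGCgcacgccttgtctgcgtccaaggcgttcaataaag
Cox6a1 (chr5:115349076-115349155, minus strand): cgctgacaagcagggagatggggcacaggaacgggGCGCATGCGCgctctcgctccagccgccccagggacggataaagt
Atp5g2 (chr15:102671048-102671124, minus strand): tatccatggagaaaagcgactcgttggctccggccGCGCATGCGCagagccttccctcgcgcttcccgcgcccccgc
Atp5k (chr5:108434405-108434484, minus strand): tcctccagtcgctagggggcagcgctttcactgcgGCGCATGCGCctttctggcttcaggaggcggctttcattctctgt

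The genes shown had log2 fold changes of 0.39 (SE 0.20) for Ndufa11, an accessory subunit of complex I, 0.35 (SE 0.23) for Cox6a1, the widely used isoform of its subunit, 0.03 (SE 0.22) for Atp5g2 and -0.04 (SE 0.20) for Atp5k. Without PA replicate 1 the Cox6a1 value was 0.16. The 21 tested genes with the shorter NRF1 motif or the ETS motif had a median log2 fold change of 0.23, with 18 positive, and the 41 matched genes with neither had 0.22, with 36 positive. A match of letters in these windows describes the sequence, and no binding was measured.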

How the data were processed

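Liver RNA of 2 PA and 2 WT mice was analysed from 2 files per library. The authors deposited raw read counts of genes (STAR) and RSEM tables with an expected count, a TPM and an FPKM value per gene, per the file headers. STAR 2.7.6a, RSEM 1.3.3 and GRCm38 come from the submitters' processing notes; which annotation was counted is not stated in them. Reads counted by STAR leave out multimapped ones. The opposite-strand column, with at least 80% of stranded counts in every library, was used. Lines that name no gene held 34.3 and 28.1% of reads in PA and 29.6 and 31.1% in WT libraries and were left out. GENCODE M21 gave symbols for 55227 identifiers, and 260 did not match. 

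Counts were tested with edgeR 4.0.16 (R 4.3.3; TMM, filterByExpr, quasi-likelihood, genotype as the only term), adjusted over all tested genes by the Benjamini-Hochberg method at 0.05, and the code was tested on simulated data. SE is the log2 fold change over the square root of F. CPM uses TMM-scaled library sizes, with 0.5 added before logs. Deposited TPM and FPKM were summed and not tested. Alternatives were DESeq2 1.42.0, limma-voom 3.58.1, other scalings, filters, count columns, offsets, a replicate block and leaving out each library. In each complex the text names called genes, the 3 smallest p-values, the 2 highest TPM, the 2 lowest fold changes and the isoform sets; from other lists called genes or the 2 smallest p-values. The members of both ribosomal and the immediate early lists are given as counts only. Genes beyond this rule (Ndufb7, Ndufb6, Ndufv3, Ndufa8, Ndufa11, Atp5a1, Atp5c1, Atp5e, Atp5k and Atp5mpl) were chosen after their values were seen. Members and lists were chosen with earlier results of these data known. GC offsets, GC tertiles, length classes, the correlations with GC content and length and the groups of subunits by role were added after seeing the data. Neither pair of replicates agreed within sampling noise (chi-square per degree of freedom 135 for PA, 46.3 for WT). The design text calls the replicates biological. Floors cover counting error only.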

Additional observations from a re-analysis of the deposited data

How the results depend on the processing

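The count of called subunit genes was 0 in each direction under all 17 alternatives, and 828 of 882 recomputed values of 52 named genes kept their direction and side of the threshold. Counts over all genes, 117 as reported, were 442 with DESeq2, 902 when genes with low counts were kept, 318 with the replicate number as a block and 155 to 500 with 1 library left out. The share of calls that were higher in PA was 32.5% as reported, 42.1% with DESeq2, 45.9% when low counts were kept, and 42.6 and 47.8% when PA replicate 1 or PA replicate 2 was left out. Deviations of same-numbered livers correlated at -0.089 over all tested genes and at 0.32 over the subunit genes; the labels give the numbers no shared source, so they were not taken as pairs. Leaving out 1 library moved the median log2 fold change of complex I over 0.042 to 0.37, of III over 0.090 to 0.43, of IV over 0.066 to 0.45 and of V over 0.12 to 0.34. Ratios of summed levels for complexes I, III, IV and V were 1.14, 1.15, 1.18 and 1.20 in CPM; for I, IV and V they were 1.04, 1.09 and 1.08 in TPM without mitochondrially encoded genes and 1.05, 1.09 and 1.08 in FPKM. The ratios of summed TPM as deposited were recomputed without each library in turn. For complexes I, III, IV and V they spanned 0.91 to 0.99, 0.91 to 1.06, 0.94 to 1.04 and 0.96 to 1.02.

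Every reversed sign belonged to a gene that was not called. With GC offsets these were Atp5g2 (-0.037) and Uqcrb (0.14); with length offsets Atp5mpl (-0.049), Ndufa4l2 (0.029), Cox7a2 (-0.032), Cox6c (-0.023), Ndufa4 (-0.017), Ndufa6 (-0.057) and Uqcrh (-0.051); with both offsets Cox7a2 (-0.057), Atp5mpl (-0.068), Atp5g2 (-0.078), Ndufa6 (-0.054), Cox6c (-0.028), Uqcrh (-0.031) and Uqcrb (0.033). With library sizes alone they were Uqcrc2 (-0.014), Atp5g2 (-0.019), Cox7a2 (-0.00898), Uqcrh (-0.00164) and Ndufa6 (-0.00717). With limma-voom they were Cox7a2 (-0.00131) and Ndufa6 (-0.012), with the replicate block Ndufa6 (-0.016) and Cox7a2 (-0.0058), with unstranded counts Atp5l (-0.014) and Ndufa4l2 (0.041), with expected counts Atp5g2 (-0.054), and without mitochondrially encoded genes Ndufa4l2 (0.0013). Leaving out 1 library gave log2 fold changes of -0.38 to 0.43 for Ndufa4, -0.42 to 0.39 for Ndufa6, -0.19 to 0.40 for Atp5mpl, -0.69 to 0.44 for Ndufa4l2, -0.18 to 0.22 for Atp5g2, -0.15 to 0.57 for Cox7b, -0.28 to 0.42 for Cox7a2l, -0.30 to 0.53 for Atp5l, -0.36 to 0.36 for Cox7a2, -0.28 to 0.45 for Cox7c, -0.46 to 0.50 for Cox6c, -0.34 to 0.35 for Uqcrh, -0.19 to 0.23 for Uqcrc2, -0.030 to 0.44 for Cox8a, -0.33 to 0.14 for Uqcrb, -0.48 to 0.24 for Atp5j2, -0.43 to 0.062 for Atp5j, -0.51 to 0.0035 for Ndufb2 and -0.13 to 0.047 for Atp5k. The cause of these changes was not tested. Coa6 was called with no filter (adjusted p = 0.0185) and without PA replicate 2 (adjusted p = 0.0428), over a range of 0.0185 to 0.77, and Ppargc1a with no filter (adjusted p = 0.00321), over a range of 0.00321 to 0.831, all by edgeR.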
